A study of Homo sapiens with 4 samples.

Results

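The cells described here were BEAS-2B cells with many replication marker transcripts and no detected transcript of CDC20, PLK1 or KIF20A, which act in mitosis. BEAS-2B cells are human airway cells, taken from bronchial epithelium and made immortal in culture. All 4 single-cell libraries were used: a non-irradiated control, the low-dose group of 10 mGy and 100 mGy, and the high-dose group of 1 Gy of Cs-137 gamma rays. The irradiated cells were processed after 30 min of culture. Each dose had 1 library, and what belongs to a dose cannot be told apart from what belongs to its library. A cell barcode was eligible with at least 5000 unique molecular identifiers (UMIs, 1 per captured mRNA molecule), at most 10% of them from mitochondrially encoded genes, and 0 UMIs of the 3 mitotic genes. The score of a barcode was the UMIs of MCM3, MCM4, MCM5, MCM6, CDC6, CDT1, GINS2, UNG, CCNE2 and DTL as a share of all its UMIs. Barcodes above the 85th percentile of the score within their own library are called marker-high cells, and the rest of the eligible barcodes are the other cells. Of 68085 deposited barcodes, 3314 were eligible and 498 were marker-high: 60 in the control, 121 with 10 mGy, 222 with 100 mGy and 95 with 1 Gy.

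At the border between G1 and S, cyclin E with CDK2 releases E2F transcription factors from RB1, and E2F turns on a set of genes for DNA replication. Products of these genes load the MCM helicase on origins (CDC6, CDT1), start the fork (GINS2, MCM10), copy DNA (PCNA, polymerases) and supply deoxynucleotides (RRM2). Once DNA is being copied, the replication-dependent histone genes are strongly expressed, and genes of G2 and mitosis follow later under other promoter elements, among them the cell cycle genes homology region (CHR).

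The eligible barcodes made up 4.42% of the barcodes that passed the UMI and mitochondrial limits in the control, 6.45% with 10 mGy, 10.4% with 100 mGy and 5.53% with 1 Gy. The barcodes left out by a mitotic UMI carried a median of 5 UMIs of the 3 genes in the control and 4 at each dose. They were also deeper, with a median of 21961.5, 20357, 15815 and 16753 UMIs in the order control, 10 mGy, 100 mGy and 1 Gy, against 16236, 15744, 11511.5 and 13025 in the eligible barcodes. When each barcode was first thinned to 5000 UMIs, 34.9, 38.6, 35.7 and 29.6% had 0 UMIs of the 3 genes, and both these shares and the order of the libraries differed from those without thinning. The score threshold was 13.5 marker UMIs per 10000 in the control, 11.4 with 10 mGy, 11.2 with 100 mGy and 13.6 with 1 Gy. Just inside and just outside it, the scores were 13.6 and 13.5 in the control, 11.44 and 11.42 at 10 mGy, 11.18 and 11.15 at 100 mGy, and 13.598 and 13.586 at 1 Gy. The percentile sets where the cut falls, so marker-high is a range of the score and not a cell type. In counts, they held a median of 25, 21, 15 and 20 marker UMIs in the order control, 10 mGy, 100 mGy and 1 Gy, against 14, 11, 7 and 12 in the other cells. They had UMIs of a median of 8, 8, 7 and 8 of the 10 markers, against 6, 6, 5 and 6. The fewest marker UMIs in a marker-high cell were 6, at 100 mGy. The variance of marker UMIs over cells was 2.01, 1.81, 1.82 and 1.71 times that of Poisson counting alone, so part of each score is counting error.

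**Figure D1:**
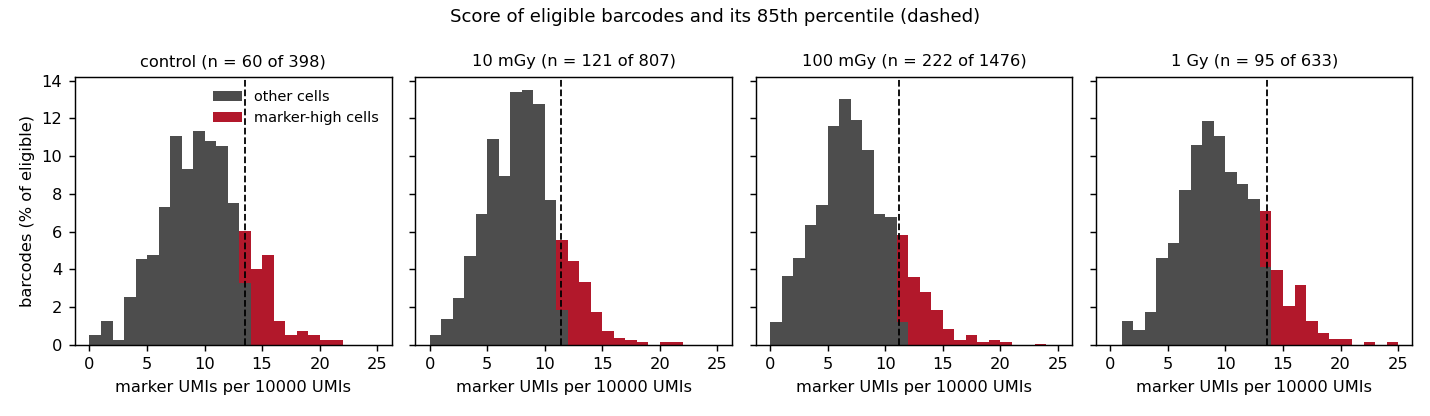
Marker UMIs per 10000 UMIs of a barcode (x axis) for the eligible barcodes of each library, as a percent of them (y axis), with marker-high cells in red, other cells in grey and the 85th percentile dashed. The threshold is lower at 10 mGy (11.4) and 100 mGy (11.2) than in the control (13.5) and at 1 Gy (13.6).

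Median depth differed little between marker-high and other cells of a library. Median UMIs were 16862.5 and 16014 in the control, 15408 and 15913 at 10 mGy, 11558.5 and 11490 at 100 mGy, and 12902 and 13072.5 at 1 Gy. The lower quartile was higher in the marker-high cells. It was 14503 against 11604 UMIs in the control and 12786 against 12131 at 10 mGy. At 100 mGy it was 9092 against 8192, and at 1 Gy 11298 against 10397. The marker-high cells of a library summed to 1002995, 1857426, 2585051 and 1219153 UMIs. Between libraries, 76 to 134 barcode sequences were shared by a pair, and 1 of them was marker-high in both 10 mGy and 1 Gy. Of the 12 genes listed for the bronchial epithelial line (the bronchial epithelial list), 7 reached 10 counts per 1000000 (CPM). They were KRT7, KRT8, KRT17, KRT18, CDH2, VIM and ITGB4, with KRT18 at 238 to 323 CPM in the marker-high cells. CDH2 and VIM are mesenchymal markers, so the list is not purely epithelial. EPCAM, CDH1, KRT5, KRT19 and TP63 of that list stayed under 10 CPM, and of 13 blood and endothelial markers only CD68 reached 10 CPM.

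The 10 markers chose the cells, so their levels are given as a description. MCM4, a subunit of the MCM helicase, stood at 405, 303, 264 and 408 CPM in the marker-high cells of the control, 10 mGy, 100 mGy and 1 Gy, against 258, 159, 137 and 238 CPM in the other cells. CCNE2, a cyclin E, stood at 143, 128, 112 and 128 CPM against 59.2, 47.6, 38.2 and 60.3 CPM. MCM4 and MCM3 together supplied the most marker UMIs: MCM4 gave 26.2, 22.8, 19.9 and 25.99% of those in the marker-high cells, and MCM3 gave 20.4, 21.1, 21.5 and 20.3%. UNG, which removes uracil from DNA, gave 3.29, 3.17, 4.09 and 3.45%.

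To obtain values that the choice of cells had not used, each marker was left out in turn and the cells were chosen again by the other 9. On the sums of each library, with the library as a block, 8 of the 10 left-out markers were higher in the cells so chosen (edgeR's quasi-likelihood test, adjusted p under 0.05, with all 4 libraries in that direction). CCNE2 stood highest in these ratios, at 1.58-fold (log2 ratio 0.66 ± 0.0730 SE, adjusted p = 3.44e-10). DTL, which marks CDT1 for destruction in S phase, was 1.41-fold higher (adjusted p = 5.60e-09), UNG 1.35-fold (0.00806), CDC6 1.30-fold (0.000165) and MCM3 1.30-fold (2.97e-10). MCM5 was 1.24-fold (0.00160), MCM6 1.24-fold (0.0116) and MCM4 1.204-fold higher (5.89e-06). At 1 Gy MCM5 was nearly level, at 104.53 CPM against 104.51 CPM in the other cells. CDT1 (1.05-fold, log2 ratio 0.07 ± 0.0966 SE, adjusted p = 0.827) and GINS2 (1.05-fold, 0.07 ± 0.0864, adjusted p = 0.780) did not pass. When every barcode was thinned to 5000 UMIs, which through tied scores also left fewer marker-high cells, MCM3, CDC6 and CCNE2 still passed, at 1.18-fold (adjusted p = 0.00825), 1.23-fold (0.0188) and 1.34-fold (0.000431), and MCM4, MCM5, MCM6, UNG and DTL did not.

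**Figure D2:**
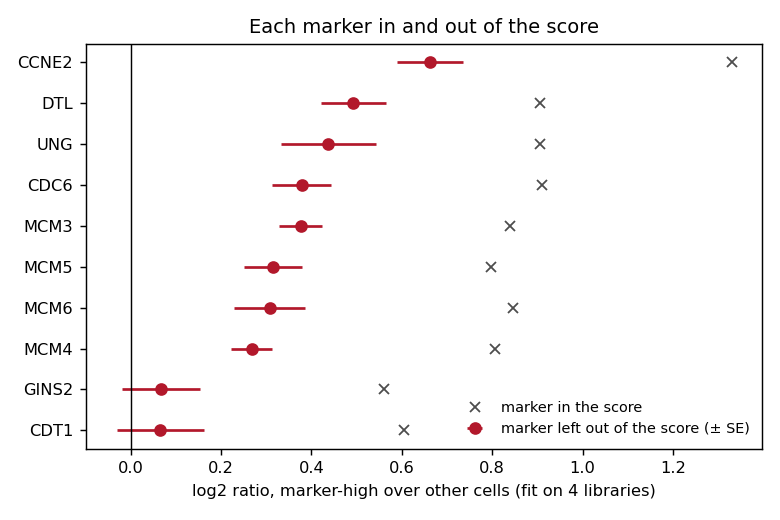
Fitted log2 ratio of marker-high over other cells (x axis) for each marker (y axis), with the marker left out of the score (red, ± SE, 4 libraries) and with it in the score (grey crosses). Left out, CCNE2 stands at 0.66 and CDT1 and GINS2 at 0.07. Leaving a marker out also changed the score and the cells chosen, so the distance to the crosses is not only the part given by choosing on that marker.

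Over the other genes, 8592 with a mean of at least 10 CPM were tested in the same way. A call needed an adjusted p under 0.05 and a fitted fold of at least 1.2. Of these genes 70 were higher in the marker-high cells (0.815% of genes tested) and 40 were lower (0.466%), together 1.28%. By library size scaling alone 108 were higher and 20 lower, so higher genes were 84.4% of the calls in place of 63.6%. Without a limit on the fold 320 genes passed (3.72%). Marker-high cells lay above the other cells in all 4 libraries for 1130 genes (13.2%) and below in all 4 for 626 (7.29%), and at least 1.2-fold above in all 4 for 32 (0.372%) and below for 12 (0.14%), on the scale of CPM plus 0.5. The 4 sums of each kind came from libraries of 4 doses. The fit took most of its spread from all genes together, so p is close to counting error. It hardly measures a gene's own spread over the 4 libraries. With each library left out in turn, 12 of the 70 higher and 8 of the 40 lower genes passed every time. With scores on barcodes thinned to 5000 UMIs the counts were 11 higher, 8 of them among the 70, and 6 lower, all 6 among the 40. Thinned scores are often tied at the threshold, so that setting also compared fewer marker-high cells (32, 74, 165 and 52 in the order control, 10 mGy, 100 mGy and 1 Gy), and the parts of thinning and of cell number in its losses cannot be told apart. DESeq2 without its filter called fewer genes in the lists: 2 higher in the E2F and G1/S control, replication fork and histone supply lists each, and 3 lower in the G2/M and 5 lower in the histone list.

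CCNE1 had the largest fitted ratio among the higher genes. CCNE1, the other cyclin E and a partner of CDK2, stood at 18.9, 16.7, 17.02 and 23.0 CPM in the marker-high cells of the control, 10 mGy, 100 mGy and 1 Gy, against 11.4, 11.5, 7.30 and 10.6 CPM in the other cells. The levels did not overlap (log2 ratio 0.88 ± 0.163 (SE), adjusted p = 3.19e-05). UHRF1, which brings the maintenance DNA methyltransferase to new DNA, stood at 124, 73.8, 68.9 and 138 CPM against 82.1, 53.6, 46.2 and 87.4 CPM, higher in each library, although the level at the low doses was below that of the other cells in the control and at 1 Gy (log2 ratio 0.54 ± 0.0706 (SE), adjusted p = 5.39e-10). FAM111B, a protease-like gene of the cell cycle, was at 126, 122, 133 and 116 CPM against 93.3, 81.1, 77.8 and 67.8 CPM, with no overlap (log2 ratio 0.63 ± 0.0629 (SE), adjusted p = 3.84e-16). WDR76, a WD-repeat protein, was at 128, 83.4, 82.0 and 109 CPM against 83.6, 58.9, 53.6 and 81.5 CPM (log2 ratio 0.51 ± 0.0694 (SE), adjusted p = 3.71e-09). CCNE1, UHRF1, FAM111B and WDR76 passed with any 1 library left out. With scores on thinned barcodes FAM111B (log2 ratio 0.53, adjusted p = 1.69e-06) and WDR76 (0.44, 0.00102) passed, and CCNE1 (0.57, 0.254) and UHRF1 (0.33, 0.0596) did not.

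**Figure D3:**
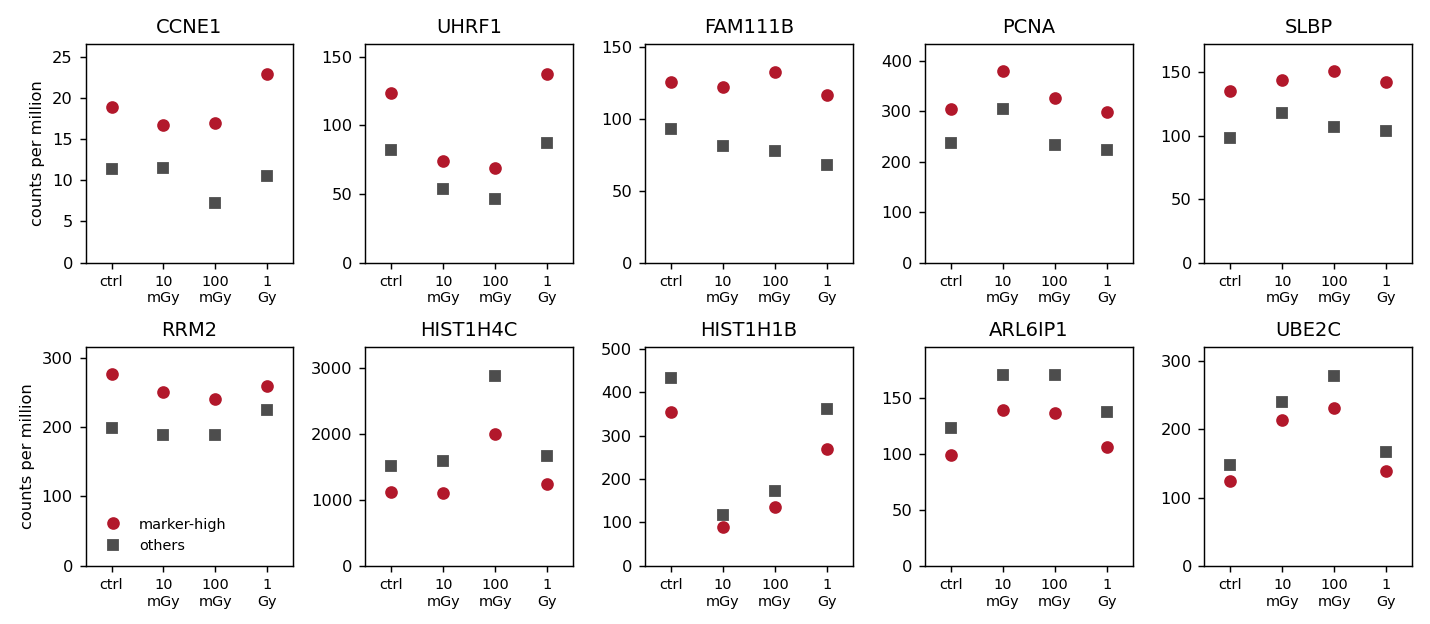
Summed UMIs per 1000000 (y axis, from 0) of 10 genes in each library (x axis; ctrl is the control), for marker-high cells (red circles) and other cells (grey squares), 1 value per library and kind of cell. The red circle lies above the grey square in all 4 libraries for CCNE1, UHRF1, FAM111B, PCNA, SLBP and RRM2, and below it for HIST1H4C, HIST1H1B, ARL6IP1 and UBE2C.

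Promoters of the markers and of the higher genes were searched for the E2F octamers TTTCCCGC, TTTCGCGC, TTTGCCGC and TTTGGCGC on both strands, in RefSeq windows (GRCh38.p14) of 250 bases before to 50 bases after the start. Of the 7 markers found in that table, 6 held an octamer. Of the 53 higher genes found there, 12 did (22.6%), against 2 of 31 lower genes (6.45%), 423 of 7123 tested genes (5.94%) and 3.33% of all 27305 promoters. The CHR hexamer TTTGAA was in 11 of the 31 lower genes (35.5%), in 6 of the 53 higher genes (11.3%), in 662 of the 7123 tested genes (9.29%) and in 15.4% of all promoters. The CCAAT box was in 28 of the 53 higher (52.8%) and 21 of the 31 lower genes (67.7%), against 37.6% of the tested genes. A match is a description of the letters and not a bound site, and the octamers overlap one another where 1 is followed by another on the opposite strand, as in MCM6. Shown here are 30 bases around an octamer (in capitals) for 3 markers and for 4 higher genes, 5′ to 3′ on the strand of the gene.
MCM3 (chr6:52284728-52284757, minus strand): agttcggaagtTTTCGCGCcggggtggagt
MCM6 (chr2:135876515-135876544, minus strand): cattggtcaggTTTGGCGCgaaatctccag
DTL (chr1:212035729-212035758, plus strand): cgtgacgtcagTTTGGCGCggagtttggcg
UHRF1 (chr19:4909476-4909505, plus strand): gccgagttttcGCGGGAAAaaaatcagagc
PCNA (chr20:5126663-5126692, minus strand): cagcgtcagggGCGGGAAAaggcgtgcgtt
LIG1 (chr19:48170440-48170469, minus strand): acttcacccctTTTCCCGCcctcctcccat
MSH6 (chr2:47783137-47783166, plus strand): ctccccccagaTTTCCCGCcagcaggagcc
The first base of the octamer shown is at -4 in MCM3, -90 in MCM6 and -8 in DTL, in UHRF1 it is at -14, in PCNA at -59, in LIG1 at -114 and in MSH6 at 4 after the start, counted from the annotated start. The octamers of UHRF1 and PCNA read on the opposite strand.

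The E2F and G1/S control list had a median log2 ratio of 0.15, against -0.002 over all genes tested. Of all genes tested 0.815% were higher and 0.466% lower. In the list 8 of the 23 tested members were higher and 0 lower. Beside CCNE1, these included CDC25A, the phosphatase that activates CDK2 (0.45), E2F1 (0.29) and the repressor E2F8 (0.47), FBXO5 (0.28), an inhibitor of the anaphase-promoting complex, CDCA7 (0.45), and the mismatch repair gene MSH6 (0.39), all as log2 ratios. E2F1 was at 95.7, 79.1, 67.3 and 85.3 CPM in the marker-high and 70.4, 57.2, 55.7 and 77.4 CPM in the other cells, in the order control, 10 mGy, 100 mGy and 1 Gy (adjusted p = 0.00639). MSH6 was at 175, 119.5, 115 and 156 CPM against 123, 99.8, 85.1 and 109.6 CPM, higher in 4 of 4 libraries (adjusted p = 2.45e-07). The cyclin D gene CCND1, which acts earlier in G1, did not pass (log2 ratio -0.13 ± 0.0774 (SE), adjusted p = 0.443), nor did CCNA2 (0.04, adjusted p = 0.853). The count of 8 was 4 without the 10 mGy library, 2 without the 100 mGy library, 7 without the control and 8 without 1 Gy, and 0 with scores on thinned barcodes.

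At the replication fork 5 of 31 tested genes were higher and 0 lower, with a median log2 ratio of 0.18 and 27 of 31 above 0. Of all 8592 genes tested, 0.815% were higher and 4228 lay above 0. PCNA, the sliding clamp, was at 305, 379, 327 and 299 CPM in the marker-high cells and 237, 305, 232 and 224 CPM in the other cells, higher in each library (log2 ratio 0.37 ± 0.0410 (SE), adjusted p = 2.62e-13). CLSPN, which couples fork stalling to the checkpoint kinase CHEK1, was at 247, 182, 207 and 219 CPM against 189, 158, 155 and 189 CPM (adjusted p = 9.14e-06). RFC4, a subunit of the clamp loader (0.29), PRIM1, the primase (0.38), and LIG1, which seals Okazaki fragments (0.30), were the others. Without the 100 mGy library the count was 1 and without the 10 mGy library 2; it was 5 without 1 Gy and 4 without the control, and 1 of 30 tested with scores on thinned barcodes. PCNA passed with any 1 library left out and on thinned barcodes, and the other 4 did not.

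Among origin licensing and firing genes outside the score, 1 of 24 was called. MCM10, which helps the helicase to open DNA, was higher, at 95.7, 77.0, 80.8 and 109 CPM against 80.2, 56.0, 54.9 and 78.4 CPM (log2 ratio 0.43 ± 0.0713 (SE), adjusted p = 2.99e-06), and 0 were lower. MCM7 passed on p alone (log2 ratio 0.20, adjusted p = 0.00934) with 169.6 to 204 CPM against 133 to 192 CPM, as did GMNN, the inhibitor of CDT1 (0.18, adjusted p = 0.0195). MCM2 (0.23, adjusted p = 0.0623), ORC1 (0.26, 0.303) and CDC45 (0.23, 0.296) did not pass. The median log2 ratio of the 24 was 0.14, with 19 of 24 above 0 and 12 above in all 4 libraries, and 10 had an unadjusted p under 0.05 by edgeR (3 by DESeq2), against 14.8% of all genes tested by edgeR and 5.35% by DESeq2. The count of 1 was 2 without 1 Gy. Of the 18 genes of deoxynucleotide supply, RRM2, the regulated subunit of ribonucleotide reductase, was higher at 277, 251, 241 and 259 CPM against 199, 188, 189 and 225 CPM (log2 ratio 0.33 ± 0.0452 (SE), adjusted p = 7.17e-09), and passed with any 1 library left out, but was under 1.2-fold with scores on thinned barcodes (log2 ratio 0.25, adjusted p = 0.00828). Its partner RRM1 was at 189, 197, 219 and 195 CPM against 183, 182, 187 and 182 CPM (adjusted p = 0.265), and TYMS, which makes thymidylate, at a log2 ratio of 0.14 (adjusted p = 0.142).

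The list of histone supply and chaperones held 5 higher genes of 13 and 0 lower, with the highest median log2 ratio of the lists, 0.24. Of all genes tested 0.815% were higher. SLBP, which binds the stem-loop of histone mRNA, was at 136, 144, 151 and 143 CPM in the marker-high and 98.5, 118, 107 and 104 CPM in the other cells, without overlap (log2 ratio 0.39 ± 0.0574 (SE), adjusted p = 4.78e-08). ASF1B, a histone H3-H4 chaperone (0.33), CASP8AP2 (0.33), UHRF1 and ZNF367 (0.68, at 27.9, 15.1, 11.6 and 22.1 CPM against 15.5, 11.6, 5.30 and 14.8 CPM) were the others. The count was 2 without the 100 mGy library, 4 without 10 mGy or without the control, 7 without 1 Gy, and 2 with scores on thinned barcodes. ASF1B stood at 51.8, 76.4, 95.5 and 72.2 CPM against 47.2, 73.1, 61.2 and 55.7 CPM, and its log2 ratio was 0.13 without the 100 mGy library (adjusted p = 0.68).

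Among the replication-dependent histone genes themselves, the calls were all in the lower direction. Of all genes tested 0.466% were lower and 7.29% lay below in all 4 libraries. Of 50 listed histone genes 25 reached 10 CPM, and of these 9 were lower and 0 higher. Their median log2 ratio was -0.30, and 16 of 25 lay below in all 4 libraries. Most of these mRNAs have no poly(A) tail, and the kit captures poly(A), so counts stand for a part of them. HIST1H4C, a histone H4 gene, was at 1119.7, 1098, 2007 and 1235 CPM in the marker-high cells of the control, 10 mGy, 100 mGy and 1 Gy and at 1522, 1587, 2874 and 1666 CPM in the other cells. It was lower in 4 of 4 libraries (log2 ratio -0.52 ± 0.0266 (SE), adjusted p = 1.44e-43). The linker histone genes HIST1H1B (355, 89.4, 135 and 268 CPM against 433, 117, 171 and 361 CPM, adjusted p = 3.09e-11), HIST1H1E (log2 ratio -0.39) and HIST1H1C (-0.30) and the histone H3 gene HIST1H3B (-0.42) passed with any 1 library left out. HIST1H4E, HIST1H2AE, HIST1H2BF and HIST1H2AJ were the other 4, with log2 ratios of -0.41, -0.82, -0.81 and -0.73. In this order they kept the call in 1, 3, 2 and 1 of the 4 fits with a library left out. HIST1H2AJ fell under 10 CPM with scores on thinned barcodes and was not tested there. The linker histone gene HIST1H1D did not pass (218, 123, 147 and 159 CPM against 188, 105, 133 and 146 CPM, log2 ratio 0.14, adjusted p = 0.135) and was above the other cells in each library. The histone genes are near-identical copies in part, so the split of UMIs among them is uncertain. The count was 6 without the 10 mGy or the 100 mGy library, 8 without the control and 9 without 1 Gy, and 2 with scores on thinned barcodes, HIST1H4C and HIST1H1B. The direction of the list median changed with the exclusion of the mitotic genes. When barcodes with their UMIs were kept in both groups, the median log2 ratio was 0.17. HIST1H4C was not among the named genes that turned in that setting. With the exclusion made after thinning, the median stayed below 0. The cause was not tested.

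Cell by cell, the histone share was broad. Per 10000 UMIs, the marker-high cells had a median of 33.2 histone UMIs in the control, 12.3 with 10 mGy, 15.7 with 100 mGy and 30.6 with 1 Gy. The other cells had 43.0, 14.7, 39.2 and 38.7. The middle 50% of the marker-high cells at 100 mGy ran from 9.51 to 49.1, and that of the other cells from 11.4 to 63.3, so the groups overlapped over most of their range.

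**Figure D4:**
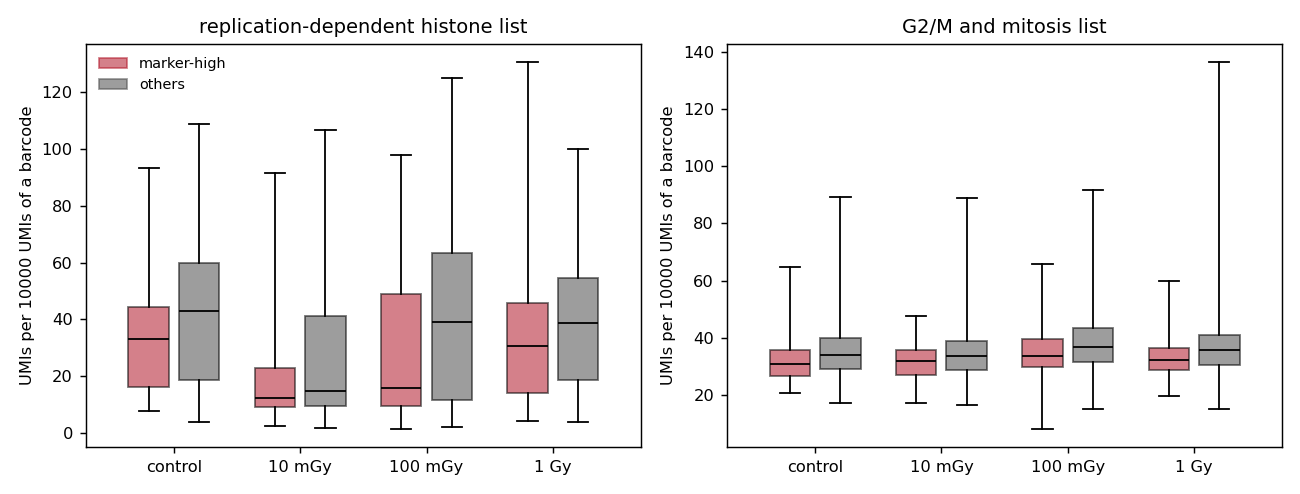
UMIs per 10000 UMIs of a barcode (y axis) for the histone list (left) and the G2/M list (right) in each library (x axis), with marker-high cells in red and other cells in grey; boxes span the middle 50% with the median, and whiskers reach the lowest and highest cell. The histone medians at 100 mGy stand at 15.7 and 39.2, and the G2/M medians of the marker-high cells (31.0, 31.9, 33.8 and 32.3) lie below those of the other cells in each library.

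Of the 35 tested genes of G2 and mitosis, 8 were lower, 0 higher and 27 did not pass. Their median log2 ratio was -0.20, and 17 lay below in all 4 libraries, while MAD2L1 lay above in all 4 (0.08, adjusted p = 0.709). Of all genes tested 0.466% were lower and 7.29% lay below in all 4 libraries. The rule required 0 UMIs of CDC20, PLK1 and KIF20A in both groups. UBE2C, the ubiquitin-conjugating enzyme of the anaphase-promoting complex, was at 125, 213, 231 and 139 CPM in the marker-high cells and 148, 241, 278 and 166 CPM in the other cells (log2 ratio -0.27 ± 0.0481 (SE), adjusted p = 1.08e-05). AURKA, a mitotic kinase, was at 75.8, 80.8, 84.3 and 99.2 CPM against 102, 86.2, 97.0 and 127 CPM (adjusted p = 0.00359). CKS2, a CDK-binding protein, was at 103, 169, 185 and 123 CPM against 140.0, 200.1, 225 and 132 CPM (log2 ratio -0.30 ± 0.0523 (SE), adjusted p = 9.14e-06). ARL6IP1 (-0.35), CDCA8 (-0.37), HMMR (-0.32), DLGAP5 (-0.36) and KIF4A (-0.28) were the other lower genes, as log2 ratios. CCNB1, the mitotic cyclin, passed on p alone (93.7, 103, 101 and 122 CPM against 114, 110.0, 119 and 126 CPM, adjusted p = 0.0448). The 35 genes summed to 3110, 3170, 3477 and 3258 CPM in the marker-high cells, 3475, 3448, 3821 and 3639 CPM in the other cells, and 5466, 5082, 5902 and 5670 CPM in the barcodes left out by a mitotic UMI. The count of 8 was 4 without 100 mGy, 4 without 1 Gy, 5 without the control and 6 without 10 mGy, and 2 with scores on thinned barcodes.

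Genes whose products are needed from S phase to mitosis gave 1 call. Of the 21 S and G2 genes, ATAD2, a chromatin factor of replicating DNA, was higher at 268, 259, 273 and 240.3 CPM against 226, 192, 208 and 214 CPM (log2 ratio 0.30 ± 0.0446 (SE), adjusted p = 7.44e-08; 0.25 without 10 mGy, where the fold is below 1.2). TOP2A, which untangles DNA, was below the other cells in 4 of 4 libraries but under 1.2-fold (log2 ratio -0.24 ± 0.0496 (SE), adjusted p = 4.31e-04), and MKI67 was at 447, 244, 245 and 454 CPM against 461, 240.2, 242 and 482 CPM (adjusted p = 0.584). The median log2 ratio of the list was -0.04, and -0.52 when barcodes with UMIs of the mitotic genes were kept. Its counts were 0 higher and 2 lower without 10 mGy, 1 and 1 without 1 Gy, 1 and 0 without the control or 100 mGy, and 0 and 0 with scores on thinned barcodes. In homologous recombination and the Fanconi pathway, XRCC2 was the 1 of 20 that was higher (log2 ratio 0.37 ± 0.116 (SE), adjusted p = 0.0499), and it did not pass with any 1 library left out. The count was 2, with other genes, without 1 Gy and 0 without each of the other libraries, and the median was 0.10 (0.07 to 0.22 over the alternatives).

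**Figure D5:**
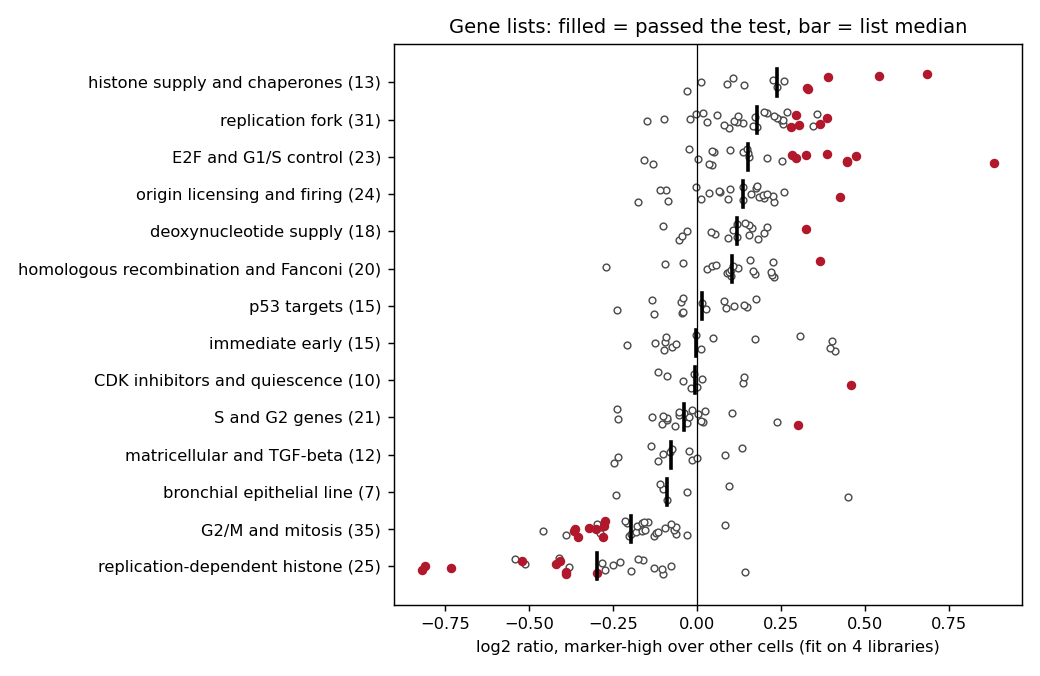
Fitted log2 ratio of marker-high over other cells (x axis) for the tested genes of each list (y axis, number of genes in brackets), with genes that passed filled red, others open and the list median as a bar. Medians run from 0.24 for histone supply and chaperones to -0.30 for the replication-dependent histones, and all filled points of the replication lists lie right of 0.

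Of the 24 genes that the naming rule took for their even differences over the 4 libraries, some belonged to no cell cycle list. LIMCH1, which binds non-muscle myosin, was at 98.7, 76.4, 82.8 and 96.8 CPM in the marker-high and 64.6, 61.6, 63.8 and 72.9 CPM in the other cells, and passed with any 1 library left out (log2 ratio 0.37 ± 0.0716 (SE), adjusted p = 9.75e-05), but not with scores on thinned barcodes (0.27, adjusted p = 0.169). PAXBP1, SOGA1 and TSC22D1, with log2 ratios of 0.28, 0.27 and 0.28, were higher in 4 of 4 libraries but lost the call whichever library was left out. Among the lower genes, PRR11, a gene of late cell cycle stages, was at 172, 98.5, 89.4 and 208 CPM against 197, 114, 110.5 and 243 CPM (log2 ratio -0.27 ± 0.0560 (SE), adjusted p = 3.97e-04), and its log2 ratio was -0.24 without the 100 mGy library (adjusted p = 0.052). KRTAP2-3 (-0.34), MRPL58 (-0.29) and the linker histone gene H1F0 (-0.27) kept the call with the control left out and lost it with each of the other libraries left out.

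Cell cycle arrest and p53 genes gave few calls. Of 10 tested CDK inhibitor and quiescence genes, CDKN1A, the CDK inhibitor p21, was higher (log2 ratio 0.46, adjusted p = 0.00181), but it stood at 39.9, 42.0, 69.6 and 37.7 CPM against 39.8, 37.9, 28.9 and 46.1 CPM, and 1 barcode gave 51 of its 180 UMIs in the marker-high cells at 100 mGy. Without that library its log2 ratio was -0.06 (adjusted p = 0.93). In the other cells, 1 barcode gave 34 of its 213 UMIs in the control, and 1 gave 67 of 327 at 1 Gy. Barcodes with a CDKN1A UMI were 45.0, 39.7, 32.4 and 40.0% of the marker-high cells in the order control, 10 mGy, 100 mGy and 1 Gy. They were 30.8, 38.2, 20.3 and 28.1% of the other cells. The difference in these shares was not tested. CDKN1B did not pass (0.14, adjusted p = 0.582). Of 15 tested p53 targets, 0 passed, and the median log2 ratio was 0.01; MDM2 was at 52.8, 29.6, 49.1 and 42.7 CPM against 59.2, 30.3, 29.6 and 67.8 CPM. The lists of 12 matricellular and TGF-beta genes and 15 immediate early genes also had 0 calls. The matricellular list had 1 lower gene without 10 mGy, without 100 mGy and without 1 Gy, and the immediate early list 2 higher without the control. THBS1 stood at a log2 ratio of 0.13 (adjusted p = 0.00563), under 1.2-fold. The 7 tested genes of the bronchial epithelial list had 0 calls (1 higher without the control, 1 lower without 1 Gy), and CD68 did not pass. Before adjustment, p was under 0.05 by edgeR for 2 of the 15 p53 targets, 6 of the 12 matricellular, 7 of the 15 immediate early and 5 of the 7 epithelial genes, and by DESeq2 for 1, 6, 2 and 3, with 0 calls by DESeq2 in these lists. These counts stand beside the 14.8% and 5.35% of all genes given above.

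Most cytosolic ribosomal protein genes were slightly lower. Of 83, 82 had a log2 ratio below 0 and 60 had an adjusted p under 0.05, with 0 past 1.2-fold and a median of -0.10. Of all 8592 genes tested, 4228 lay above 0 and 3.72% had an adjusted p under 0.05. By library, 62 of the 83 lay below the other cells in all 4 (7.29% of all genes) and 2 above in all 4 (13.2%). With library size scaling the median was -0.07 and 22 had an adjusted p under 0.05, and with median ratio scaling -0.11 and 66. With scores on thinned barcodes it was -0.06 and 3. These genes took 134695, 190689, 205576 and 133780 of 1000000 UMIs in the marker-high cells and 141028, 198208, 216168 and 138978 in the other cells. All UMIs stood in the divisor of the score, these included, so the 2 quantities are not independent.

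The share of eligible barcodes above the threshold of the control differed between the libraries. It was 15.1% in the control, where the rule fixes it, 5.204% at 10 mGy (exact binomial 95% interval 3.78 to 6.97), 5.22% at 100 mGy (4.14 to 6.48) and 15.3% at 1 Gy (12.6 to 18.4), for counting error only. The low-dose libraries lay below the control and the 1 Gy library, whose intervals contain 15.1%. The mean score was 9.80, 8.13, 7.50 and 9.81 marker UMIs per 10000, and the score is a share of all UMIs. The median gene was also lower at the low doses, with a median log2 ratio to control of -0.29, -0.37 and 0.03 in the other cells at 10 mGy, 100 mGy and 1 Gy, so the lower share is not shown to be particular to the markers. When each barcode was thinned to 5000 UMIs, with ties at the threshold left out, the shares were 8.04% in the control, 4.96%, 2.71% and 8.21%. Without the mitotic exclusion they were 15.003%, 7.89%, 6.57% and 16.2%, and the low-dose libraries again lay below the other two. Median UMIs of the eligible barcodes were 16236, 15744, 11511.5 and 13025. No test between doses could be made with 1 library each.

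Within the marker-high cells, the levels at each dose were set beside those of the control, again with 1 library a group and no test. The 3 comparisons share the control cells. At 10 mGy 1678 genes were at least 1.2-fold higher (19.5%) and 4195 lower (48.8%), at 100 mGy 1511 (17.6%) and 4575 (53.2%), and at 1 Gy 1850 (21.5%) and 1551 (18.1%). In the other cells the shares were 15.7% and 51.9% at 10 mGy, 14.2% and 57.5% at 100 mGy, and 9.42% and 5.49% at 1 Gy. The marker-high cells summed to 1002995 UMIs in the control and 1219153 at 1 Gy, against 5358459 and 7095474 in the other cells. Counting error puts more genes past 1.2-fold in smaller sums, so these shares cannot be compared between marker-high and other cells. Over the 8592 genes the median log2 ratio to control was -0.25 for 10 mGy, -0.31 for 100 mGy and 0.02 for 1 Gy, and lists are read against it. Ribosomal protein genes stood at medians of 0.53, 0.61 and -0.004, the replication-dependent histones at -1.49, -1.24 and -0.30, the E2F and G1/S control list at -0.55, -0.44 and -0.12, and the replication fork at 0.01, -0.002 and -0.05. With median ratio scaling, which sets the all-gene median to 0, the replication fork stood at 0.25, 0.31 and -0.07. In the other cells, the ribosomal protein medians were 0.50, 0.64 and -0.001 and the histone medians -1.27, -1.26 and -0.32. The E2F and G1/S control list stood there at -0.30, -0.46 and -0.01, and the replication fork at -0.08, -0.13 and 0.04, beside an all-gene median of -0.29, -0.37 and 0.03. The p53 targets were at -0.67, -0.40 and -0.17 in the marker-high cells and at -0.22, -0.36 and 0.13 in the other cells.

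For single genes, the ratio to control in the other cells is given beside that of the marker-high cells. HIST1H1B stood at 355 CPM in the control and 89.4 CPM at 10 mGy, a ratio of 0.252 (exact Poisson 95% interval 0.208 to 0.304), and in the other cells the ratio was 0.270. NNMT, which methylates nicotinamide, stood at 69.8 CPM in the control and 192 CPM at 10 mGy (ratio 2.75, 2.13 to 3.61, against 2.502 in the other cells) and 189 CPM at 100 mGy (2.70, 2.10 to 3.53, against 2.47). COX6C, a subunit of cytochrome oxidase, was at a ratio of 2.69 at 100 mGy (2.23 to 3.26, against 2.29), and the mitochondrially encoded MT-ND6 at 0.199 (0.166 to 0.237, against 0.170). At 10 mGy LITAF (2.63 against 1.80), MRPS21 (2.33 against 1.88), COX6C (2.24 against 1.91) and IFI27L2 (2.22 against 2.23) were among the other largest rises, all as ratios among genes with a mean of at least 100 CPM over the marker-high cells of the 4 libraries. MT-ND6 (0.285 against 0.277), the protocadherin gene FAT1 (0.304 against 0.298) and HIST1H1E (0.318 against 0.348) were among the other largest falls. At 100 mGy these included NDUFA4 (2.32 against 2.12) and ATP5MD (2.30 against 2.04), and TRIO (0.273 against 0.303), MICAL2 (0.310 against 0.407) and HIPK2 (0.317 against 0.328). At 1 Gy the largest ratios were nearer to 1. PSMD14, a proteasome subunit, was at 1.51 (1.26 to 1.81) against 1.36, and PHLDA2 at 0.637 (0.512 to 0.792) against 0.805. The rises of DDA1 (1.54 against 1.02), COX16 (1.52 against 1.2005), LITAF (1.48 against 1.07) and TMEM147 (1.47 against 1.07) were larger than in the other cells. Of the falls, BDP1 was at 0.656 against 0.843, SYNE2 at 0.667 against 0.898, HIST2H2AC at 0.679 against 0.717 and RBIS at 0.684 against 0.637. These genes were picked for their ratio in the marker-high cells, and the difference between the groups was not tested.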

How the data were processed

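Human BEAS-2B cells were sequenced with a 3′ kit that captures poly(A) RNA. The values deposited by the authors are raw counts of UMIs, for 36601 genes in each barcode; the file header names Cell Ranger 7.0.1, and the submitters' processing notes name Cell Ranger, STAR and GRCh37. The annotation used and whether introns were counted are details not given in these sources. The members and gene lists were chosen with earlier results of these data known.

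Counts were summed per library over marker-high and other cells (8 sums) and tested with edgeR 4.0.16 (quasi-likelihood, TMM, library as a block) over genes with a mean of 10 CPM. The 13 genes of the rule were left out of every count. Ratios within a library added 0.5 CPM to both sums. Adjustment was Benjamini-Hochberg over all genes tested. The fit had 3 residual and 186 prior degrees of freedom and a biological coefficient of variation of 0.0213, so p is close to counting error. Labels give 1 sample per dose and no separate cultures, so p does not measure the spread between cultures. On simulated sums of 8521 genes for this comparison, 50 of 50 genes raised 2-fold, 45 of 50 raised 1.5-fold, 43 of 43 lowered to 0.5 and 40 of 47 lowered to 0.6667 had an adjusted p under 0.05 (no limit on the fold), as did 10 of 8331 unchanged genes. No fold nearer to 1 was simulated, and each change was equal in all 4 libraries. Power for smaller folds, and calls that rest on 1 library or 1 barcode, are therefore not covered by the simulation. Member sums held 1002995 to 2585051 UMIs. Doublets were not called; barcodes over 2.5 times the median UMIs were left out as an alternative.

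Named were the genes of the lists and of the rule, the 12 higher and 12 lower genes with the largest of their smallest log2 ratio over the 4 libraries (called, at least 50 CPM, 1 direction in all 4), and the 5 largest rises and falls at each dose (at least 100 CPM); a few genes that this rule took are not reported here. Of 50 histone genes, all were matched by identifier to the older symbols in the files. Promoters came from RefSeq (GRCh38.p14, the first window listed for a symbol) and were matched by symbol. Alternatives were other UMI, mitochondrial and score limits, thinning, DESeq2 1.42.0, other scalings and filters, no library block and leaving out each library; 3 alternatives were added after the data were seen (the mitotic exclusion after thinning, DESeq2 without its filter, and the control-threshold share without the exclusion).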

Additional observations from a re-analysis of the deposited data

Results flagged for a closer look

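The immediate early genes, which respond to growth factors and stress within minutes, differed in direction between libraries within the marker-high cells. Their median log2 ratio of marker-high over other cells was -0.1999 in the control and 0.2087 at 10 mGy, over 15 genes, with 0.0786 at 100 mGy and -0.0862 at 1 Gy. The listed genes summed to 1581, 1483, 1318 and 1617 CPM in the marker-high cells of the control, 10 mGy, 100 mGy and 1 Gy. In the other cells they summed to 1747, 1402, 1313 and 1691 CPM. EGR1 stood at 25.9 CPM in the marker-high and 49.6 CPM in the other cells of the control, from 26 UMIs in 60 cells, and at 64.6 and 55.4 CPM at 10 mGy, from 120 UMIs in 121 cells. Each value is from 1 library, so the difference was not tested.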

How the results depend on the processing

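The counts of genes called, 70 higher and 40 lower, depended on how the cells were chosen. They were 58 and 35 with the 75th percentile and 28 and 21 with the 95th. They were 20 and 21 with at most 5% mitochondrially encoded UMIs, and 11 and 6 with scores on barcodes thinned to 5000 UMIs. They were 351 and 206 without the mitotic exclusion and 213 and 120 when the exclusion was made after thinning, a setting added after the data were seen. Of the 70 and 40 genes, 34 and 20 were also called with the 75th percentile and 20 and 11 with the 95th. Without the exclusion 42 and 13 of them were called, and with it after thinning 41 and 17. DESeq2 with the library as a block called 6 and 9, and 14 and 10 without its filter, also added after the data were seen. Library size scaling gave 108 and 20. With each library left out in turn, the counts ran from 20 to 64 higher and from 17 to 37 lower. No paired analysis by replicate numbers was possible because each dose has 1 library; pairing was within libraries, and with no replicate block for the library 0 and 0 genes were called (88 with an unadjusted p under 0.05). The lowest counts without a library came from leaving out 100 mGy, the library with the most eligible barcodes.

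Without the mitotic exclusion the replication-dependent histone list turned from -0.30 to 0.17, and so did HIST1H1B (0.23), HIST1H1E (0.0589), HIST1H3B (0.0455), HIST1H1C (0.20) and KRTAP2-3 (0.24), while SOGA1 turned to -0.26; SOGA1 was also at -0.000106 with thinned scores. In the same setting origin licensing moved to 0.20, histone supply to 0.42, the G2/M list to -0.87, the S and G2 list from -0.04 to -0.52 and the matricellular list from -0.08 to 0.14. With the exclusion after thinning these last 2 stood at -0.23 and 0.0103. The immediate early list, at -0.003, ran from -0.07 with DESeq2 to 0.15 with at most 5% mitochondrial UMIs. The G2/M list stood at -0.24 with at most 5% mitochondrial UMIs, -0.16 with library size scaling, -0.15 with a minimum of 10000 UMIs, and -0.46 with the exclusion after thinning. The histone list stood at -0.43 with the 95th percentile, -0.14 with the exclusion after thinning, -0.22 with thinned scores and -0.18 with the other cells weighted to the UMI deciles of the marker-high cells, and from -0.36 to -0.29 with a library left out. Deoxynucleotide supply was at 0.0694 with thinned scores. The bronchial epithelial list turned to 0.0102 with the exclusion after thinning and 0.0589 without it. With thinned barcodes the left-out markers MCM4 (0.14), MCM5 (0.20), MCM6 (0.22), UNG (0.37) and DTL (0.19) no longer passed. With median ratio scaling 13 of 54 dose medians of lists in the marker-high cells changed sign. At 10 mGy these were deoxynucleotide supply (-0.21 to 0.04), S and G2 (-0.16 to 0.09), G2/M (-0.08 to 0.17), immediate early (-0.24 to 0.0043) and the epithelial list (-0.16 to 0.09). At 100 mGy they were origin licensing (-0.30 to 0.0124), the replication fork (-0.002 to 0.31), deoxynucleotide supply (-0.23 to 0.08), S and G2 (-0.22 to 0.09) and the epithelial list (-0.10 to 0.21), and at 1 Gy 3 lists within 0.02 of 0. With the 75th percentile the share above the control threshold was 25.1% in the control, where the rule fixes it. It was 10.4%, 9.69% and 25.8% at 10 mGy, 100 mGy and 1 Gy. With the 95th the share was 5.03% in the control and 1.24%, 1.56% and 6.79% at those doses. It was 2.71% at 100 mGy and 8.21% at 1 Gy with thinned barcodes, and 7.89% at 10 mGy and 6.57% at 100 mGy without the mitotic exclusion, which for these shares was chosen after seeing the data. The cause of these changes was not tested.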

Other observations

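Outside the gene lists, and chosen after their values were seen, HMGCS1, INSIG1 and SCD were among the 70 higher genes; they were not tested as a group. HMGCS1, an early enzyme of sterol synthesis, was at 69.8, 106, 90.9 and 73.0 CPM in the marker-high cells of the control, 10 mGy, 100 mGy and 1 Gy, and at 57.7, 75.4, 56.3 and 64.4 CPM in the other cells (log2 ratio 0.44, adjusted p = 1.28e-06 by edgeR). INSIG1, which holds back sterol synthesis, had a log2 ratio of 0.38 (adjusted p = 2.44e-05), and SCD, a fatty acid desaturase, 0.27 (0.0151), each higher in 4 of 4 libraries. Without the 100 mGy library HMGCS1 stood at 0.32 (adjusted p = 0.056), INSIG1 at 0.23 (0.22) and SCD at 0.27 (0.14), and none of these passed. HMGCS1 and INSIG1 passed with any other library left out. SCD also did not pass without the control (0.23, adjusted p = 0.10) or without 10 mGy (0.23, 0.19). With scores on thinned barcodes HMGCS1 passed (0.43, adjusted p = 0.00351), and INSIG1 (0.24, 0.272) and SCD (0.18, 0.563) did not.

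SYNM, an intermediate filament gene chosen in the same way, was higher in 4 of 4 libraries (log2 ratio 0.71, adjusted p = 2.07e-05), with 22.1 to 41.0 CPM in the marker-high cells and 12.9 to 21.3 CPM in the other cells, and passed with any 1 library left out, but not with scores on thinned barcodes (0.53, adjusted p = 0.119). CXCL1, a chemokine gene, was called higher (log2 ratio 0.54, adjusted p = 0.00487), but 1 barcode gave 67 of its 110 UMIs in the marker-high cells at 10 mGy, and without that library the log2 ratio was -0.08 (adjusted p = 0.90).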
